A study of Homo sapiens with 18 samples.

Results

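Olaparib-treated LNCaP cells were compared with DMSO-treated LNCaP cells, in 4 of the 18 RNA sequencing libraries of the series. All features of the inhibitor table with a mean of at least 1 CPM (the reads of a gene scaled to a common library total) over its 8 libraries were taken, which left 13337 of 21391 (62.3%). The feature just inside that threshold had a mean of 1.001 CPM (ENSG00000267248) and the one just outside a mean of 0.9995 CPM (TFAP2E). LNCaP cells are an established line from a human prostate cancer that still responds to androgen, they were grown in medium with 10% fetal bovine serum, and every group used below is this 1 line. Cells received 10 uM olaparib, 10 uM veliparib, 10 uM UPF1069 or the solvent DMSO for 24 h, and in a second experiment the control siRNA siNC or siPARP1_A, siPARP1_B, siPARP2_A or siPARP2_B for 72 h, with 2 libraries per group, which the series describes as biological duplicates. For no group is androgen described as added or removed. What separates the duplicates (dish, day or passage) was not given, so p-values measure the spread between these libraries alone.

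Olaparib is a clinical inhibitor of PARP1 and PARP2, which build ADP-ribose chains from NAD when they meet broken DNA. It occupies their NAD pocket and can hold the enzymes on DNA, where replication forks meet them. In prostate luminal cells androgen acts, together with the pioneer factor FOXA1 and with HOXB13, at enhancers of secreted proteases, transporters and metabolic enzymes, and lowers a smaller set of genes. Dividing cells express replication genes under E2F factors from late G1 and mitotic genes under the DREAM and MuvB complexes, B-MYB and FOXM1 from late S phase.

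The olaparib libraries held 32.87 and 35.7 M reads and the DMSO libraries 28.96 and 34.32 M, so that 3 reads made 0.0841 to 0.104 CPM, a floor that covers counting error only. Replicates of olaparib differed by a median of 0.0533 on the log2 scale per gene and those of DMSO by 0.0499. Those of UPF1069 differed by 0.0467 and those of veliparib by 0.093, the widest. All inhibitor groups shared 1 fit, so the spread of the veliparib duplicates entered every p-value. All 12 prostate luminal markers on the list passed the filter and were present in every library, with a summed level of 6088 to 6190 CPM in DMSO and 3936 to 3978 CPM with olaparib. The lower sum was not shared by all members. By the rule given below 6 of the 12 rose and 6 fell, with a median log2 change of -0.07. Of the other markers, 7 of 16 neuroendocrine, 7 of 10 basal, 5 of 11 stromal and 4 of 10 immune or endothelial genes had a row in the table, and the rest were not analysed here. The summed level was 47.7 to 50.3 CPM in DMSO and 72.3 to 76.5 CPM with olaparib for the neuroendocrine genes, 65.5 to 66.1 and 54.9 to 58.1 for the basal genes, 20.3 to 20.5 and 17.2 to 18.2 for the stromal genes, and 10.6 to 11.5 and 5.6 to 6.11 for the immune and endothelial genes. None of the listed markers with a row was at 0 in all 8 libraries, and the part of other cell states in the results below was not tested. In bulk RNA, fewer cells of a kind and less RNA per cell cannot be told apart.

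After 24 h of olaparib many transcripts had moved a little and a small set had moved a lot, and that set held more falls than rises. Changes are given as log2 fold changes on the scale of log2(CPM + 1), which understates the change of low genes, and as passing when limma's adjusted p lay below 0.05. On this rule 7004 genes (52.5%) changed, of which 3435 (25.8% of those tested) rose and 3569 (26.8%) fell. Both olaparib libraries lay above both DMSO libraries in 5223 genes (39.2%) and below both in 5247 (39.3%), so that a gap between the groups was common. The median size of a passing change was 0.30, and 5519 of the passing genes (78.8%) changed by less than 0.5. Only 72 genes (0.54%) rose by 2-fold or more, against 176 (1.32%) that fell by 2-fold or more. At a log2 change of 2 or more 3 genes rose and 27 fell, and at 3 or more 6 fell and 0 rose. Of protein-coding genes 3112 of 11633 rose and 3318 fell, whereas of lncRNA genes 218 of 1059 rose and 131 fell. Calls depended on level: among the 3335 genes of the lowest level class 17.1% rose and 17.6% fell, and among the 3334 of the highest class 31.2% and 33.2%.

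**Figure D1:**
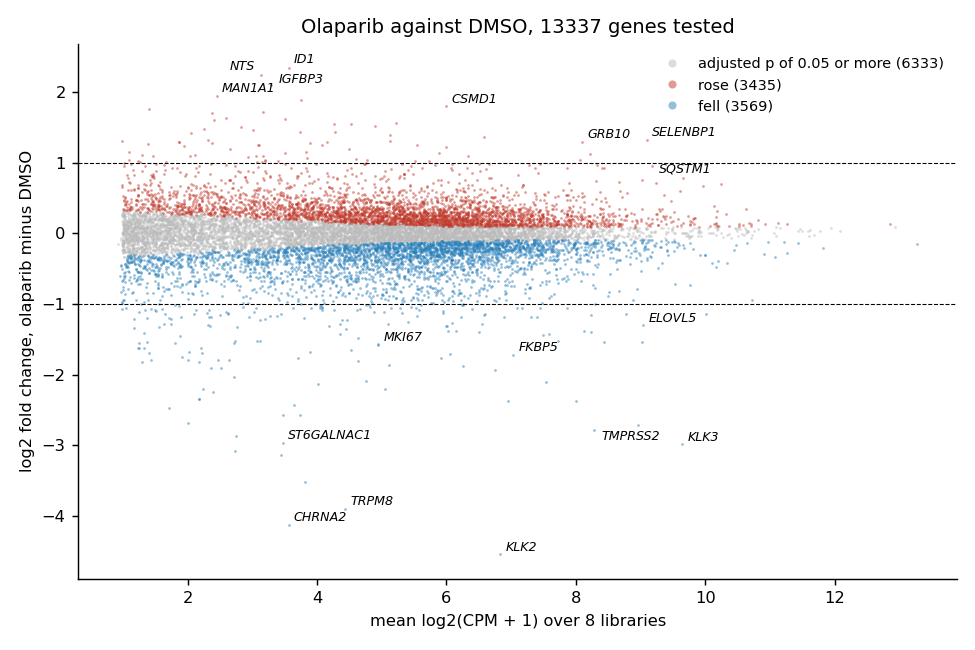
Each point is 1 of the 13337 tested genes, with its mean log2(CPM + 1) over the 8 inhibitor libraries on the x axis and its log2 fold change with olaparib against DMSO on the y axis. Dashed lines mark 2-fold changes; the points below the lower line (176) outnumber those above the upper one (72), and the farthest, KLK2, lies at -4.55.

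Luminal transcription factors did not move as 1 group. FOXA1, the pioneer factor that opens enhancers, was at 339.9 and 340.5 CPM in DMSO and at 408.8 and 423.4 CPM with olaparib (0.29, SE 0.04, adjusted p = 2.66e-06). HOXB13, a homeobox factor of the prostate lineage, rose by 0.16 and GATA2, a zinc finger factor of the same enhancers, by 0.21. ELF3, an epithelial ETS factor, rose by 0.52. Other luminal factors were lower: SPDEF, an ETS factor of secretory epithelium, fell by 1.29 on the log2 scale, CREB3L4 by 0.88 and EHF by 0.83.

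The kallikrein genes KLK3 and KLK2 fell most among the secreted proteins, and their promoters are shown because both hold a match to the spacing of an androgen response element. The lines give the 270 bases from 250 before to 20 after the annotated gene start, 5′ to 3′ on the gene's strand, from RefSeq on GRCh38.p14, and capitals mark the match, which is GNACA, any 4 bases, then GTNC. KLK3 is at chr19:50854665-50854934 and KLK2 at chr19:50873189-50873458, both on the plus strand.
KLK3: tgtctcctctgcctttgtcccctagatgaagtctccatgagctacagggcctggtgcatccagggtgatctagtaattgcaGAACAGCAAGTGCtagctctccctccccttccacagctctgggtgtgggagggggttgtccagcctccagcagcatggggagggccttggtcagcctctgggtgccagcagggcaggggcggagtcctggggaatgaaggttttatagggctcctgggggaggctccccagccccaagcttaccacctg
KLK2: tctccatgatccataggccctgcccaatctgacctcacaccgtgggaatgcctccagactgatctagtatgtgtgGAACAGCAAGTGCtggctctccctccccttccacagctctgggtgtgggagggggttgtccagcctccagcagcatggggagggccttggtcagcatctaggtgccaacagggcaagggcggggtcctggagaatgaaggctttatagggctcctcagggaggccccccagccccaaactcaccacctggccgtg
A script found GAACAGCAAGTGC in both windows, beginning 169 bases before the start of KLK3 and 175 bases before that of KLK2. That spaced pattern, searched on both strands from 250 bases before to 50 after the start, occurred in 166 of 10146 tested genes with a promoter entry (1.64%), in 5 of 53 androgen-induced genes (9.43%), and in 5 of 126 genes that fell by 2-fold or more (3.97%). The latter 5 were KLK2, KLK3, AFF3, CENPN and GNMT. Among genes that rose by 2-fold or more it occurred in 2 of 48 (4.17%). Most such elements in use are known to lie outside these windows, and a match is a description of letters only.

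Of the secreted androgen-induced genes 11 of 13 fell (26.8% of all tested genes did), 1 rose (25.8% of all) and 1 did not pass, with a median of -1.19 and 7 falls of 2-fold or more. KLK2, a trypsin-like protease of seminal fluid, was at 257.9 and 271.4 CPM in DMSO and at 9.87 and 10.9 CPM with olaparib. The olaparib libraries lay far below the DMSO libraries, at a mean 25.5 times lower, a log2 change of -4.55 (SE 0.05, adjusted p = 6.69e-26). KLK3, which encodes prostate-specific antigen, was at 1429 and 1444 CPM in DMSO and at 180.6 and 178.6 CPM with olaparib, an 8-fold lower mean. KLK4, a protease that activates other kallikreins, was at 109.3 and 110.6 CPM and at 29 and 29.3 CPM (-1.88). KLK15 fell by 1.19, and TMPRSS2, the membrane serine protease whose promoter is fused to ETS genes in many prostate tumours, by 2.78. ACPP, prostatic acid phosphatase, was the exception: it stood at 41.5 and 42.8 CPM in DMSO and at 66.7 and 68.1 CPM with olaparib, a rise of 0.67 with no overlap. CORO1B was the member that did not pass, at 0.04.

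The membrane and transport genes listed as androgen-induced followed, with 16 of 20 falling and 4 rising (median -0.82). Whether androgen raises or lowers each member, FOLH1 among them, was not tested here. CHRNA2, an acetylcholine receptor subunit, was at 26.1 and 27.3 CPM in DMSO and at 0.575 and 0.588 CPM with olaparib, a log2 change of -4.13 (SE 0.08, adjusted p = 2.42e-21). TRPM8, a cold- and menthol-sensing calcium channel, was at 42.6 and 40.7 CPM and at 1.82 and 1.91 CPM (-3.90). In both genes the olaparib libraries lay far below the DMSO libraries, with DMSO means 45.9 and 22.4 times as high. ADAM7 fell by 3.52, SLC45A3, the prostate membrane protein prostein, by 2.38, and ABCC4, an efflux pump for cyclic nucleotides, by 1.54. The 4 that rose were FOLH1 (prostate-specific membrane antigen), STEAP2 and STEAP1 (metalloreductases) and BEST1 (a chloride channel), at 0.67, 0.60, 0.16 and 0.47. FOLH1 went from 848.1 and 867.3 CPM to 1364 and 1366 CPM, clear of the DMSO libraries.

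Of the intracellular androgen-induced genes 39 of 44 fell, 2 rose and 3 did not pass (median -0.92). FKBP5, a co-chaperone of steroid receptors and a standard readout of their activity, was at 171.7 and 179.7 CPM in DMSO and at 53.5 and 52.0 CPM with olaparib, a log2 change of -1.72. HPGD, which inactivates prostaglandins, fell by 2.87 (edgeR -4.32), AFF3 by 2.43, PMEPA1, an inhibitor of SMAD signalling, by 2.37, and IQGAP2, a scaffold protein, by 2.21. TARP fell by 3.08 (edgeR -4.80), but its reads come from a T cell receptor gamma locus and overlap neighbouring segments. KRT8, a luminal keratin, and LIFR, a cytokine receptor subunit, rose by 0.22 and 0.36. Genes listed as androgen-repressed moved the other way for the larger part: 12 of 16 rose, 3 fell and 1 did not pass, with a median of 0.84. Whether androgen raises or lowers each of these, TMEFF2 among them, was not tested here. GRB10, an adaptor that restrains insulin signalling, was at 212.9 and 207.9 CPM in DMSO and at 516.7 and 525.4 CPM with olaparib (1.30, SE 0.04, adjusted p = 6.84e-18). OPRK1, the kappa opioid receptor, rose by 1.47, SI, sucrase-isomaltase, by 1.42, SERPINI1 by 1.14, and DDC, which makes dopamine and serotonin, by 1.10. UGT2B28 and UGT2B11 and the membrane protein gene TMEFF2 fell instead, by 1.80, 1.17 and 1.05; UGT2B28 was at -2.83 in edgeR, and reads of the near-identical UGT2B genes are uncertain.

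**Figure D2:**
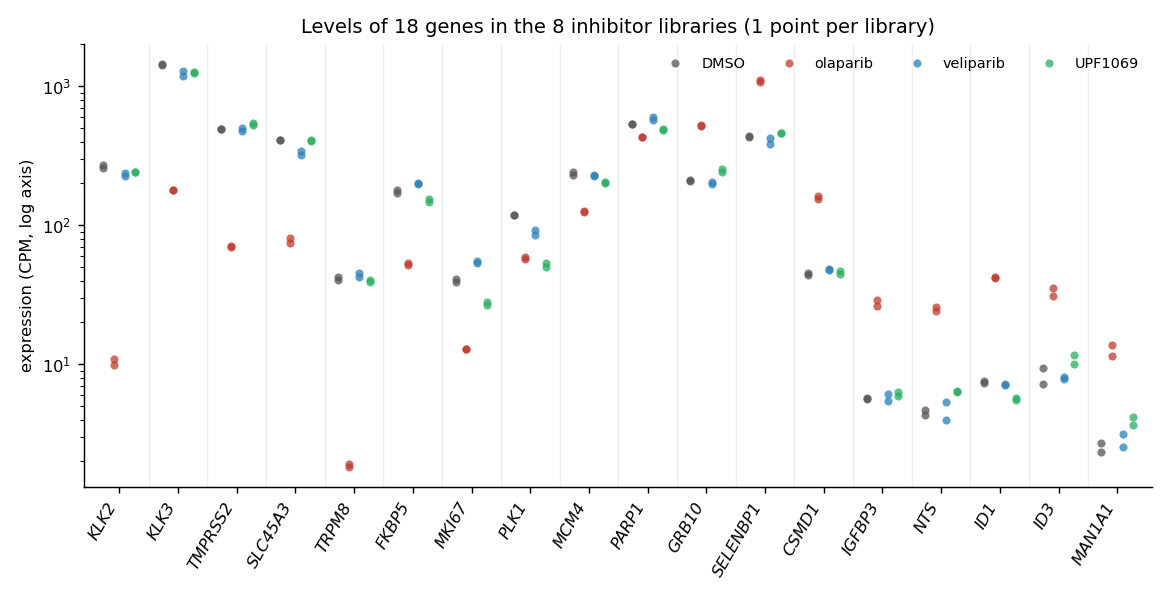
Each point is the expression of 1 gene in 1 of the 8 inhibitor libraries, in CPM on a log axis, with colours for DMSO, olaparib, veliparib and UPF1069. Androgen-induced genes from KLK2 (9.87 and 10.9 CPM with olaparib) to FKBP5 are lowest in the olaparib libraries, PARP1 differs little between groups, and the genes from GRB10 to MAN1A1 are highest in the olaparib libraries.

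Cofactors of steroid receptors split. NCOA3 and NCOA2, histone acetylase-recruiting coactivators, rose by 0.58 and 0.51 and NCOA1 by 0.35. ZBTB16, a corepressor-binding zinc finger factor that is itself androgen-induced, fell by 1.58 and TRIM68 by 0.68. In all, 4 of 13 cofactors rose and 6 fell (median -0.11), where 25.8% of all tested genes rose and 26.8% fell. Polyamine synthesis, a pathway that supplies the spermine of prostatic fluid, held 6 falls and 0 rises among 8 genes (median -0.32). SRM, spermidine synthase, fell by 0.69 and ODC1, the rate-limiting decarboxylase, by 0.15. Among enzymes that start or extend O-linked sugars and add sialic acid 8 of 15 fell and 4 rose. ST6GALNAC1, a sialyltransferase, was at 17.5 and 17.0 CPM in DMSO and at 1.36 and 1.29 CPM with olaparib (-2.97), UAP1, which makes UDP-N-acetylglucosamine, fell by 1.40 and GALNT7 by 1.31. N-glycan trimming enzymes moved the other way, with 6 of 11 higher and 1 lower: MAN1A1, a Golgi mannosidase, went from 2.70 and 2.32 CPM to 11.5 and 13.7 CPM, a rise of 1.95.

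Genes that prepare and start DNA replication fell almost without exception, where 26.8% of all tested genes fell and 25.8% rose. Of 30 genes of origin licensing and the replicative helicase 28 fell, 1 rose and 1 did not pass (median -0.74). CDC45, the helicase cofactor whose loading fires an origin, was at 49.2 and 48.2 CPM in DMSO and at 21.5 and 24.2 CPM with olaparib, a log2 change of -1.06 (SE 0.06, adjusted p = 3.2e-12). MCM4, a subunit of the helicase ring, was at 242.0 and 231.7 CPM and at 125.3 and 125.8 CPM (-0.91), and no library of one group reached the other. MCM5 fell by 0.94, CDC6, a loading ATPase, by 0.87, and GINS1 by 0.95. ORC4, an origin recognition subunit, was the gene that rose (0.37), and ORC3 at 0.01 did not pass. At the fork itself 41 of 45 genes fell, 1 rose and 3 did not pass (median -0.55): RRM2, the ribonucleotide reductase subunit that limits deoxynucleotide supply, fell by 1.05, the histone chaperone ASF1B by 1.06, the flap nuclease FEN1 by 0.91 and the sliding clamp PCNA by 0.64. POLD4, the smallest subunit of DNA polymerase delta, rose by 0.27, a call that was lost without DMSO replicate 2, without olaparib replicate 1 and with DESeq2.

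The promoter of MCM3, another ring subunit, which fell by 0.74, is shown as a licensing gene with 2 matches to E2F sites, at chr6:52284723-52284992 on the minus strand, in the same RefSeq build and window and written along the gene's strand. Capitals mark the matches.
MCM3: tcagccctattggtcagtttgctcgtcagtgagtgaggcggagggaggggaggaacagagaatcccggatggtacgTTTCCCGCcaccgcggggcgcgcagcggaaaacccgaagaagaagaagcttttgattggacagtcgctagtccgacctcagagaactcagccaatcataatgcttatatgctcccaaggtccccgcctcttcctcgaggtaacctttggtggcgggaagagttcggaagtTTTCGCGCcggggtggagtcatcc
The E2F letters searched, on both strands, were TTTGGCGC, TTTCCCGC, TTTCGCGC and TTTGCCGC, and here they begin 174 and 4 bases before the start. They occurred in 13 of 26 licensing and helicase genes with an entry (50%), in 12 of 37 fork genes (32.4%) and in 550 of all 10146 (5.42%). Among genes that fell by 2-fold or more they occurred in 6 of 126 (4.76%). CDC45 and RRM2 held no match in the same window. Genes of some E2F factors fell too. E2F1, an activator, was at 101.8 and 102.4 CPM in DMSO and at 52.4 and 54.4 CPM with olaparib (-0.92). E2F2 fell by 1.14 and E2F7, a repressor, by 1.04. MYBL2, which encodes B-MYB, fell by 1.14. Over E2F, DREAM and pocket protein genes 14 of 19 fell and 4 did not pass, and RBL2, the pocket protein p130, rose by 0.22. Of G1 and S phase cyclins and kinases 10 of 11 fell (median -0.36): CCNA2, cyclin A, by 0.96, and CDK2 by 0.74. CCND1, cyclin D1, moved by -0.13.

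Mitotic genes were lower almost throughout. Of 106 tested, 103 fell (26.8% of all tested genes did), 1 rose (25.8% of all) and 2 did not pass, with a median of -0.76. MKI67, which encodes the proliferation antigen Ki-67, was at 39.3 and 41.0 CPM in DMSO and at 12.9 and 12.8 CPM with olaparib, a log2 change of -1.57 (SE 0.06, adjusted p = 4.43e-16). PLK1, the kinase of mitotic entry, was at 117.6 and 119.3 CPM and at 59.5 and 57.0 CPM (-1.01). For MKI67 and PLK1 each olaparib library lay below each DMSO library. All 20 kinase and cyclin genes fell (median -0.79), as did all 48 spindle and cytokinesis genes (-0.78) and all 12 kinesins (-0.86). KIF20A, a kinesin of the midbody, fell by 1.13, CENPN, a centromere reader, by 1.40, ESPL1, the protease separase, by 1.11, and HMMR by 1.07. Of condensin and cohesin genes 15 of 17 fell, and the cohesin genes PDS5A (-0.02) and STAG2 (0.09) did not pass. CDC14A, a phosphatase of mitotic exit, rose by 0.25, a call that was lost without DMSO replicate 2, without either olaparib library and with DESeq2.

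The promoters of PLK1 (chr16:23678639-23678908) and CCNB2 (chr15:59104896-59105165), both on the plus strand, show 2 sets of letters that were common among mitotic genes, of which the first occurred in 0 of 26 licensing and helicase genes. CCNB2 encodes cyclin B2 and fell by 0.84. Capitals mark TTTGAA, the core of the cell cycle homology region bound by MuvB complexes, and CCAAT, the box bound by NF-Y.
PLK1: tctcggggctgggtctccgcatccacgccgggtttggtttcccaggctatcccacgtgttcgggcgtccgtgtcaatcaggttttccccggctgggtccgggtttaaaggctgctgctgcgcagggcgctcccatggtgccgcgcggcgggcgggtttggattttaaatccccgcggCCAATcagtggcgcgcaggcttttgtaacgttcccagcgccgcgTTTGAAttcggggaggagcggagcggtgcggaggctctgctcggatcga
CCNB2: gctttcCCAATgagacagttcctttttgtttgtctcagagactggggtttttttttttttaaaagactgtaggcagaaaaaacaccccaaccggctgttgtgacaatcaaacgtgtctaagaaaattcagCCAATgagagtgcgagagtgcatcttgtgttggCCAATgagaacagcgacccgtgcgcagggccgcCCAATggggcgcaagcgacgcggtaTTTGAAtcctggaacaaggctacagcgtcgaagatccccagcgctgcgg
TTTGAA began 29 bases before the start in both genes. CCAAT began 73 bases before the start of PLK1 and 244, 120, 87 and 54 bases before that of CCNB2. TTTGAA on either strand occurred in 54 of 89 mitotic genes with an entry (60.7%), in 0 of 26 licensing and helicase genes and in 9.29% of all. CCAAT occurred in 60 of the 89 mitotic genes (67.4%), in 17 of the 26 licensing genes (65.4%) and in 37.4% of all, and both together in 38 mitotic genes (42.7%) against 4.02% of all. These shares describe the lists, whose members were chosen by function.

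**Figure D3:**
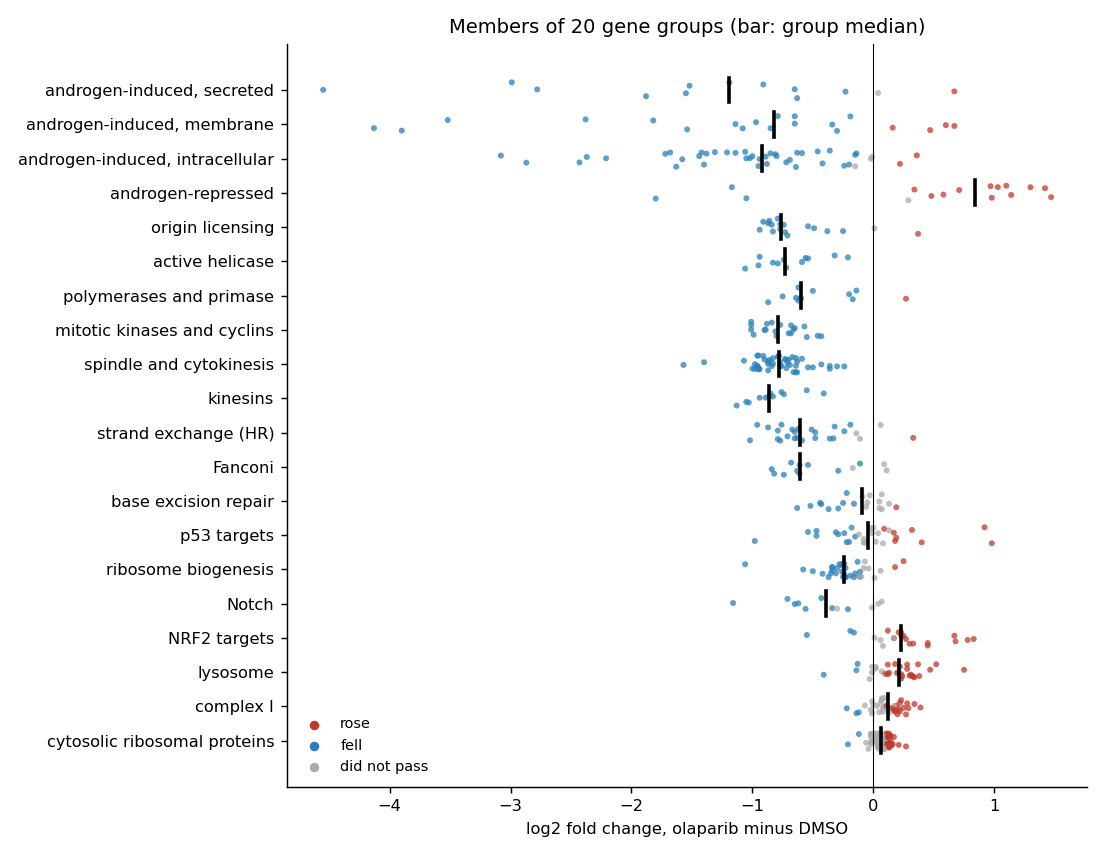
Each point is 1 tested gene of 20 gene groups, placed by its log2 fold change with olaparib against DMSO and coloured by whether it rose, fell or did not pass; black bars are group medians. The androgen-induced groups spread widely to the left (KLK2 at -4.55), the mitotic kinase, spindle and kinesin groups sit in a narrow band with medians of -0.78 to -0.86, and the ribosomal protein and complex I groups sit close to 0.

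Homologous recombination copies a sister chromatid to mend breaks, and loss of it is what makes tumour cells sensitive to PARP inhibitors. Of its genes and the Fanconi genes 39 of 52 fell (26.8% of all tested genes did), 1 rose (25.8% of all) and 12 did not pass (median -0.50). BRCA1, a ubiquitin ligase that starts resection, was at 50.3 and 53.6 CPM in DMSO and at 29.8 and 29.4 CPM with olaparib, a log2 change of -0.79 (SE 0.06, adjusted p = 6.84e-11). BRCA2, a central mediator of the pathway, was at 20.2 and 18.8 CPM and at 13.0 and 12.1 CPM (-0.59). Both genes were lower in each olaparib library. RAD54L fell by 1.02, FANCA by 0.84 and FANCD2, the crosslink sensor, by 0.63, while BARD1, the partner of BRCA1, rose by 0.33 (1 rise on the list, 3 without either veliparib library). The strand exchange group (22 of 26 lower, median -0.61) and the Fanconi group (10 of 13, -0.61) moved more than the sensing group (7 of 13, -0.16), in which MDC1, a chromatin adaptor at breaks, fell by 1.29 and ATM stood at 0.12 without passing. No test compared these groups.

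Genes of the other repair routes moved less: 15 of 33 excision, end-joining and mismatch repair genes fell, 2 rose and 16 did not pass (median -0.09), with 1 rise without DMSO replicate 2 or olaparib replicate 2 and 4 without either veliparib library. NEIL3, a glycosylase of dividing cells, fell by 0.63 and PMS2 rose by 0.54. The genes of the inhibited enzymes were themselves a little lower. PARP1 was at 537.4 and 535.7 CPM in DMSO and at 432.8 and 431.5 CPM with olaparib (-0.31, SE 0.04, adjusted p = 1.77e-07), and PARP2 at 42.5 and 42.2 CPM and at 28.9 and 28.5 CPM (-0.55, SE 0.05, adjusted p = 1.08e-08). In neither gene did the groups overlap. PARP8 and PARP11 rose by 0.56 and 0.37, and the tankyrases TNKS2 and TNKS by 0.34 and 0.31. PARG, which removes the chains, fell by 0.26. Of all tested genes 25.8% rose and 26.8% fell. Over ADP-ribose and NAD genes 14 of 36 rose and 7 fell (median 0.07), and without DMSO replicate 1 the rises numbered 9.

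Targets of p53 had no common direction: 8 of 30 rose, 11 fell and 11 did not pass (median -0.04). SESN1, a leucine sensor of mTORC1 control, was at 123.4 and 128.7 CPM in DMSO and at 243.5 and 257.0 CPM with olaparib (0.98, SE 0.05, adjusted p = 1.49e-13). TP53INP1, an autophagy and stress protein, rose by 0.92. PLK2, a kinase of centriole duplication, fell from 60.4 and 62.7 CPM to 29.8 and 31.4 CPM (-0.98), and MDM2, the ligase that degrades p53, moved by -0.15. Of BCL2 family and caspase genes 4 of 18 rose and 5 fell: BMF, a death-promoting member, rose by 0.43 and BCL2L12 fell by 0.50. Of all tested genes 25.8% rose and 26.8% fell.

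ID1 had the largest rise of all tested genes that passed. ID proteins are helix-loop-helix factors that bind E proteins and keep them off DNA, and BMP signals through SMAD1, SMAD5 and SMAD9 are their best known inducer. ID1 was at 7.57 and 7.38 CPM in DMSO and at 42.1 and 41.7 CPM with olaparib, a log2 change of 2.34 (SE 0.08, adjusted p = 6.76e-17). ID3 was at 7.16 and 9.35 CPM and at 35.5 and 31.0 CPM (1.89, SE 0.10, adjusted p = 3.04e-13). ID2 was at 8.96 and 9.03 CPM and at 24.8 and 27.5 CPM (1.44, SE 0.08, adjusted p = 1.23e-12). For each of the 3 genes the lowest olaparib library lay above the highest DMSO library. Their E protein partner TCF3 fell by 0.34. The counts that follow stand beside 25.8% of all tested genes that rose and 26.8% that fell, and BMP signalling itself was not tested. Of BMP and TGF-beta signalling genes 10 of 23 rose and 4 fell (median 0.15): SMAD9 rose by 0.55, SMAD1 by 0.49 and SMAD7, an inhibitory SMAD, by 0.43, while the receptor BMPR1B fell by 0.69. Over ID, BMP, TGF-beta and Notch genes together the rises numbered 14, and 9 without olaparib replicate 2. Notch genes held 8 falls and 0 rises among 12 (median -0.39). HES6, a helix-loop-helix factor of prostate and neural cells, went from 125.3 and 125.5 CPM to 55.4 and 55.7 CPM (-1.16), NRARP, a feedback inhibitor, fell by 0.71 and the ligand JAG1 by 0.56.

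Of 9 IGF binding and receptor genes 3 rose and 6 fell (median -0.16), where 25.8% of all tested genes rose and 26.8% fell. IGFBP3, which binds IGFs in the extracellular space, was at 5.71 and 5.59 CPM in DMSO and at 26.2 and 29.2 CPM with olaparib, a log2 change of 2.11 (SE 0.09, adjusted p = 6.26e-15). IGF1R, the receptor, was at 31.3 and 29.4 CPM and at 10.3 and 10.1 CPM (-1.48, SE 0.06, adjusted p = 4.98e-15). The ligand IGF1 fell by 1.68 and the adaptor IRS2 by 0.59, and no library crossed between groups for IGFBP3 or IGF1R. In the ERBB and MAPK group DUSP4, a phosphatase that switches off ERK, fell by 1.65, INPP4B, a phosphoinositide phosphatase, by 1.68, and EGFR by 0.60, while the ligand HBEGF rose by 0.87 and ERBB2 by 0.47.

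Further genes among the largest rises had no list in common. NTS, the neuropeptide neurotensin, went from 4.29 and 4.71 CPM to 25.8 and 24.1 CPM, a log2 change of 2.24 (SE 0.10, adjusted p = 2.89e-14), and it made up much of the higher neuroendocrine marker sum, since ENO2, another of those markers, rose by 0.33 and DLL3 fell by 0.32. CSMD1, a complement control protein of large size, went from 45.5 and 44.0 CPM to 154.2 and 163.1 CPM (1.80). SELENBP1, a selenium-binding methanethiol oxidase, went from 430.0 and 440.0 CPM to 1076 and 1111 CPM (1.33, SE 0.04, adjusted p = 3.49e-17). In each of these genes the olaparib libraries were clear of the DMSO libraries. PLD1, phospholipase D, rose by 1.77, DAB1, a reelin adaptor, by 1.71, SEMA6A, a guidance ligand, by 1.55, RDH10, which makes retinal, by 1.52, DAPK1, a death-associated kinase, by 1.51, and CERK, ceramide kinase, by 1.48. Among the largest falls outside the androgen lists were TM4SF1, a tetraspanin-like surface protein, at -3.14, F5, coagulation factor V, at -2.58, AKAP12, a kinase scaffold, at -2.35 (edgeR -3.84), GRIN3A, an NMDA receptor subunit, at -2.14, and STK39, a kinase of ion transport, at -2.10. ZNF812 is annotated as a pseudogene and TUBA3D has near-identical copies, so their values of -2.58 and -2.35 (TUBA3D -3.69 in edgeR) are uncertain.

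Lipid genes were counted by step, beside 25.8% of all tested genes that rose and 26.8% that fell. Elongation held 5 falls and 1 rise among 8 genes (median -0.27). ELOVL7, an elongase of saturated chains, was at 149.1 and 153.4 CPM in DMSO and at 38.6 and 38.8 CPM with olaparib (-1.94, SE 0.05, adjusted p = 1.5e-18). ELOVL5, an elongase of polyunsaturated chains, was at 649.4 and 662.5 CPM and at 265.8 and 267.2 CPM (-1.30), with a gap of over 2-fold between groups in both genes. ACSL3, which activates long chains, was at 385.5 and 394.3 CPM and at 194.1 and 195.8 CPM. Synthesis held both directions, with FASN, fatty acid synthase, at -0.33 and the desaturase SCD at 0.22. Of 16 activation and oxidation genes 8 rose, 3 fell and 5 did not pass, HADHB, a subunit of the trifunctional protein, by 0.55. Over all fatty acid genes the rises numbered 14, and 9 without DMSO replicate 1 or without olaparib replicate 1. Cholesterol synthesis held 10 falls and 2 rises among 20 (median -0.13). TM7SF2, a sterol reductase, rose by 0.93, as did the sterol exporter ABCG1 (0.85) and the sensor INSIG2 (0.84).

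The counts of the next groups stand beside 25.8% of all tested genes that rose and 26.8% that fell. Glycolysis held 13 falls and 2 rises among 19 (median -0.18), led by HK2, hexokinase 2, at -0.94, the lactate exporter SLC16A3 at -0.94 and the glucose carrier SLC2A1 at -0.57. Of hypoxia genes 9 of 19 fell and 7 rose, with STC1 at -1.13 and NDRG1 at -0.89, and ADM, the vasodilator peptide adrenomedullin, at 1.30. ER stress sensors and chaperones held 11 falls and 2 rises among 15 (median -0.20), SDF2L1 at -0.58. The ATF4 branch of the stress response differed from these: 9 of 20 rose and 3 fell (median 0.10), DDIT3, which encodes CHOP, by 0.70 and ASNS, asparagine synthetase, by 0.48. NRF2 targets rose in 15 of 22 and fell in 3 (median 0.23): NQO1, a quinone reductase, went from 123.8 and 129.9 CPM to 199.4 and 207.3 CPM (0.68), while GSR fell by 0.55. The ferritins FTL and FTH1 rose by 0.51 and 0.46 and TFRC, the transferrin receptor, fell by 0.39.

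Of lysosomal genes 22 of 32 rose and 3 fell (median 0.21). NEU1, a sialidase, went from 64.3 and 66.7 CPM to 111.0 and 111.0 CPM (0.75), LAMP2 rose by 0.52 and TPP1 by 0.47, while TFEB, the factor that drives such genes, fell by 0.41. SQSTM1, the autophagy receptor p62, was at 477.3 and 477.2 CPM in DMSO and at 922.2 and 934.4 CPM with olaparib, a log2 change of 0.96 (SE 0.03, adjusted p = 5.05e-16). OPTN rose by 0.77 and GABARAPL1 by 0.53, and over autophagy genes 8 of 21 rose and 2 fell. The machinery of protein and energy production moved by small amounts. Its counts stand beside 25.8% of all tested genes that rose and 26.8% that fell. Of nuclear-encoded oxidative phosphorylation genes 37 of 76 rose and 5 fell (median 0.10, NDUFB4 the highest of complex I at 0.39), and the rises numbered 21 without DMSO replicate 1, the falls 2 or 3 without a DMSO or olaparib library and 8 without either veliparib library. Of cytosolic ribosomal protein genes 24 of 74 rose and 2 fell (0.06); the rises numbered 4 without DMSO replicate 1, 11 and 13 without olaparib replicate 1 and 2, 44 without either veliparib library and 37 with only DMSO and olaparib in the fit, and the falls 0 or 1 without DMSO replicate 2 or an olaparib library. Ribosome biogenesis held 28 falls and 2 rises among 36 (median -0.24), TCOF1, a factor of rDNA transcription, at -1.06 and MYC at -0.58. Mitochondrial ribosomal proteins (13 of 74 higher, 21 lower) and the proteasome (13 of 41 higher, 7 lower) had medians of -0.02 and 0.02, and without DMSO replicate 1 their rises numbered 7 and 7. The mitochondrial ribosomal rises numbered 8 without olaparib replicate 1 and the falls 13 without DMSO replicate 2, and the proteasome falls 2 to 4 without a DMSO or olaparib library and 11 without either veliparib library.

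Interferon-stimulated genes held 5 rises and 8 falls among 26 (median -0.08), OAS3, a sensor of double-stranded RNA, at -1.11 and IRF1 at 0.55, and class I antigen genes 4 rises and 2 falls among 15, where 25.8% of all tested genes rose and 26.8% fell. The rises of both together numbered 9, and 5 without DMSO replicate 2. Of 13 NF-kB genes 6 fell and 1 rose, NFKB2 by -0.45. Core splicing factors held 26 falls and 5 rises among 44 (median -0.12), with 16 falls without DMSO replicate 2. Chromatin regulators held 26 falls and 19 rises among 72, beside 26.8% and 25.8% of all tested genes. The H3K9 methylase SUV39H1 fell by 0.74 and the H3K79 methylase DOT1L by 0.62, and the H3K27 demethylase KDM6A rose by 0.54. Among keratins and junction genes KRT19 fell by 1.70 and OCLN, the tight junction protein occludin, rose by 0.88. CYP11A1, the side-chain cleavage enzyme of steroid synthesis, fell by 1.33, and COL5A2, a collagen chain, rose by 1.29.

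Veliparib and UPF1069 were given at the same dose and time, so olaparib was set against each directly. Olaparib is a phthalazinone, veliparib a benzimidazole carboxamide and UPF1069 an isoquinolinone, and all 3 carry the amide that mimics nicotinamide. These 2 contrasts share the olaparib libraries, and the DMSO values given with them are shared by all compounds. Against DMSO, 40.4% of genes passed with veliparib, 9 (0.0675%) higher and 3 (0.0225%) lower by 2-fold or more, and 24.3% passed with UPF1069, 29 (0.217%) higher and 6 (0.045%) lower by 2-fold or more. The numbers of 2-fold changes were thus far below those with olaparib. In the direct contrasts 59.5% of genes passed against veliparib, 4229 (31.7%) higher and 3700 (27.7%) lower with olaparib, of which 88 (0.66%) and 196 (1.47%) by 2-fold or more. Against UPF1069 51.2% passed, 3600 (27%) higher and 3222 (24.2%) lower, of which 62 (0.465%) and 191 (1.43%) by 2-fold or more. The set that fell by 2-fold or more against DMSO was low against the other compounds as well: all 176 were lower with olaparib than with veliparib (median -1.34) and 173 lower than with UPF1069 (median -1.22), 1 being higher and 2 not passing. Of the 72 that rose by 2-fold or more 71 were higher than with veliparib and 71 higher than with UPF1069. Since the 2-fold sets were chosen with these olaparib libraries, the counts describe them and test nothing.

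KLK3 stood at 1177 and 1282 CPM with veliparib and at 1264 and 1250 CPM with UPF1069, against 180.6 and 178.6 CPM with olaparib. The direct log2 difference was -2.77 from veliparib and -2.80 from UPF1069. ID1 stood at 7.11 and 7.21 CPM with veliparib and at 5.67 and 5.51 CPM with UPF1069, both far under the olaparib libraries. Of intracellular androgen-induced genes 38 of 44 were lower with olaparib than with veliparib and 36 lower than with UPF1069. Mitotic genes separated the comparators. Against veliparib 102 of 106 were lower with olaparib (median -0.77), and against UPF1069 82 were lower and 4 higher (median -0.32). PLK1 was lower with olaparib than with veliparib (85.1 and 92.2 CPM, direct difference -0.60), but higher than with UPF1069 (53.1 and 50.4 CPM, direct difference 0.17, adjusted p = 0.0056). CCNB1, cyclin B1, was at 166.0 and 163.5 CPM with olaparib and at 169.5 and 169.3 CPM with UPF1069, a direct difference of -0.04 that did not pass (SE 0.04, adjusted p = 0.377). Licensing and helicase genes gave 28 of 30 lower than with veliparib (median -0.75) and 27 lower than with UPF1069 (-0.67). Targets of p53 rose with UPF1069 against DMSO in 29 of 30, where 10.3% of all tested genes rose (median 0.70, beside -0.04 with olaparib). These targets were lower with olaparib than with UPF1069 in 27 of 30 (median -0.90), and lower than with veliparib in 15 with 7 higher (median -0.10). The ATF4 branch fell against DMSO in 18 of 20 genes with veliparib (median -0.25) and in 14 with UPF1069 (-0.34), beside a median of 0.10 with olaparib. Of all tested genes 23.2% fell with veliparib and 14% with UPF1069. The ATF4 branch was higher with olaparib in 19 of 20 genes against veliparib (median 0.39) and in 16 against UPF1069 (0.40). Of lysosomal genes 26 of 32 were higher than with veliparib and 17 higher than with UPF1069. Some groups also fell against DMSO with another compound. Glycolysis genes fell in 15 of 19 with veliparib (median -0.25) and in 11 with UPF1069 (-0.15), beside 13 with olaparib. ER stress sensors and chaperones fell in 11 of 15 with UPF1069 and in 6 with veliparib, beside 11 with olaparib. Core splicing factors fell in 30 of 44 with UPF1069 and in 11 with veliparib (14 rose), beside 26 with olaparib.

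**Figure D4:**
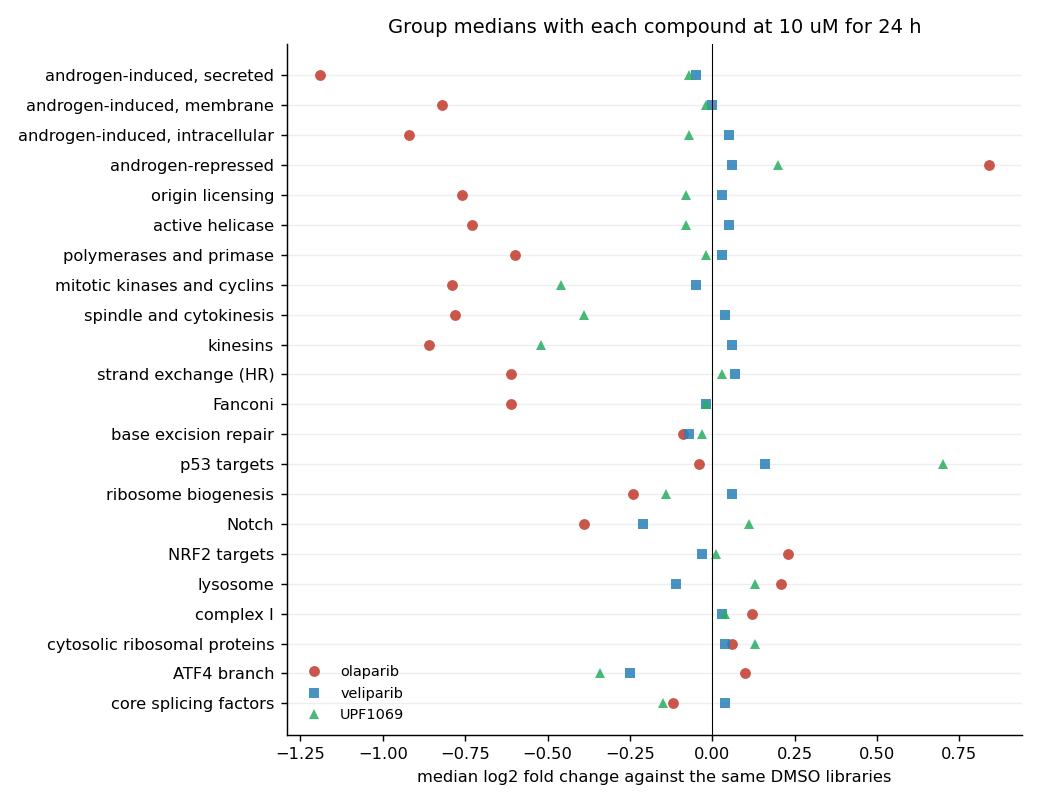
For 22 gene groups, the median log2 fold change with olaparib (circles), veliparib (squares) and UPF1069 (triangles), each against the same DMSO libraries, is on the x axis. The androgen-induced groups lie at -0.82 to -1.19 with olaparib and near 0 with the other compounds, whereas the mitotic groups are below 0 with olaparib and UPF1069.

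The siRNA experiment gave values for the genes that olaparib moved most, in a separate table with its own controls and at 72 h in place of 24 h. Of the 176 genes that fell by 2-fold or more with olaparib, 165 were tested there. With siPARP2_B 120 were lower (72.7%, against 35.2% of all genes tested) and 27 higher (16.4%, against 30.9%), with a median of -1.08. With siPARP2_A 119 were lower (72.1%, against 24.9%) and 13 higher (7.88%, against 24.5%), with a median of -0.67. The siPARP1 sequences did not move them alike: with siPARP1_A 95 were lower (57.6%, against 28.9%) and 32 higher (19.4%, against 25.5%; median -0.40), and with siPARP1_B 52 were lower (31.5%, against 23.9%) and 45 higher (27.3%, against 16.4%; median -0.03). KLK2 shows the spread between sequences, at -1.33 with siPARP1_A, 0.06 with siPARP1_B (adjusted p = 0.53), -2.29 with siPARP2_A and -3.58 with siPARP2_B. TMPRSS2 was lower with all 4, in that order at -1.78, -1.12, -1.59 and -2.45.

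Of the 72 genes that rose by 2-fold or more 65 were tested in the siRNA table. With siPARP2_B 43 were higher (66.2%, against 30.9%) and 14 lower (21.5%, against 35.2%; median 0.52), and with siPARP2_A 30 were higher (46.2%, against 24.5%) and 13 lower (20%, against 24.9%; median 0.26). With siPARP1_A 27 were higher (41.5%, against 25.5%) and 21 lower (32.3%, against 28.9%; median 0.09). With siPARP1_B more were lower than higher, 26 (40%, against 23.9%) and 13 (20%, against 16.4%), with a median of -0.14. MAN1A1 was at 5.05 with siPARP2_B and at 1.48 with siPARP2_A, but at -0.65 with siPARP1_A and 0.03 with siPARP1_B (the last not passing). The ID genes differed between siRNAs: with siPARP1_A, siPARP1_B, siPARP2_A and siPARP2_B, ID1 was at -0.49, -0.74, -0.43 and 0.72, ID2 at 0.34, -1.03, -0.24 and 0.82, and ID3 at -0.83, -0.97, -0.94 and 0.12 (the last not passing). SELENBP1 was at -1.41 with siPARP2_B but at 0.58 with siPARP2_A. It did not pass with siPARP1_A (-0.06) or siPARP1_B (-0.13). Dose, duration and delivery differ between the experiments, and no test was made across the tables.

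**Figure D5:**
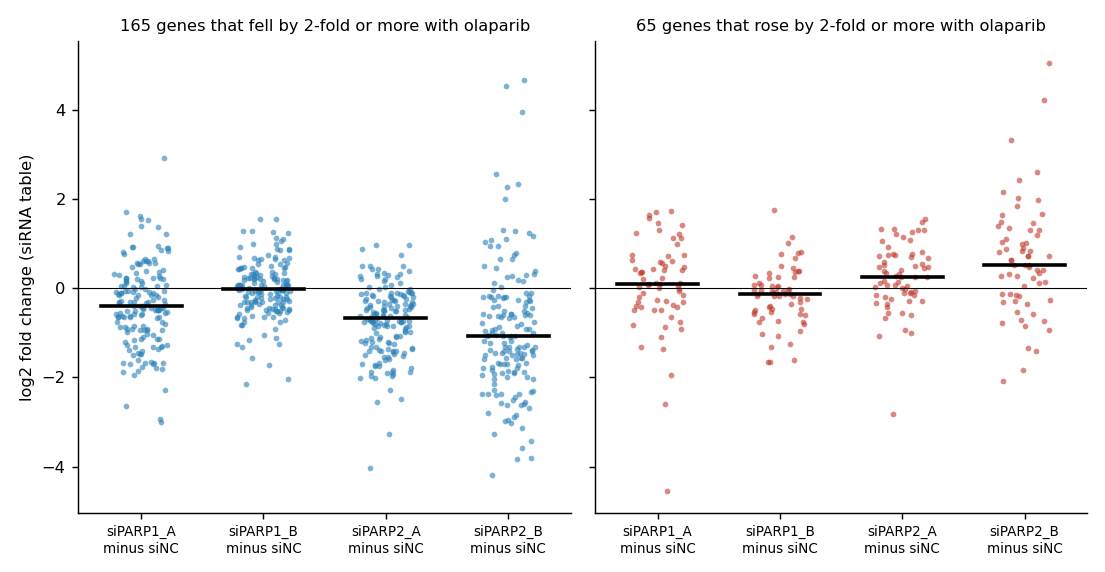
Each point is the log2 fold change against siNC, in the siRNA table, of a gene that fell (left, 165 genes) or rose (right, 65 genes) by 2-fold or more with olaparib, for each of the 4 siRNAs; black bars are medians. The medians of the fallen genes lie at -0.40, -0.03, -0.67 and -1.08 from left to right, and points above 0 occur with every siRNA.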

How the data were processed

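RNA sequencing of LNCaP cells was analysed from 2 deposited tables, 1 for inhibitors (8 libraries) and 1 for siRNAs (10 libraries). Per the submitters' processing notes the tools were HTSeq 0.6.1, edgeR 3.12.0, bcl2fastq 2.18 and TopHat2 2.1.0, and the build hg19. The inhibitor values are CPM as deposited by the authors, and how their library totals were set is not given in the sources used here. The siRNA values are a deposited signal whose steps are those of read counts scaled per library, with a scaling not given in the sources used here, and that table was tested apart. Every value above 0 was a whole multiple of what 1 read was worth, within 0.01 of a read, which gave back the read numbers (26.43 to 35.7 M reads per inhibitor library, 15.45 to 18.62 M per siRNA library). Genes with a mean of at least 1 were tested on log2(value + 1) with limma 3.58.1 in R 4.3.3, with trend, all groups of a table in 1 fit, two-sided, and Benjamini-Hochberg adjusted p below 0.05 over 13337 genes (12701 for siRNAs). The residual degrees of freedom were 4, the prior ones 17.6 and the median SE 0.062. Of 21391 features 4941 carried no symbol in the file and 2862 kept an identifier only after lookup. edgeR 4.0.16 and DESeq2 1.42.0 on the recovered reads, other scalings, filters and pseudocounts, a replicate block and each library left out were alternatives. Replicate numbers did not pair the libraries (correlations of deviations -0.06 to 0.03). CPM are not per length, so levels are not compared between genes, and strand-specific counting is not given in the sources used here, so reads of overlapping genes cannot be told apart.

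Named are a few genes set by name, a part of the 25 largest changes each way, up to 4 leading members per role of each list, and members that stand for a role or go against it. Members and lists were chosen with earlier results of these data known, and genes named outside that rule were chosen after their values were seen. Some genes are not reported here. Promoters were matched by symbol for 10146 of 13337 genes in RefSeq on GRCh38.p14. limma and edgeR were tested on simulated data before use.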

Additional observations from a re-analysis of the deposited data

How the results depend on the processing

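The count of genes past 2-fold depended on how low genes were handled. Genes higher by 2-fold or more made up 0.54% of the 13337 genes tested, and 0.87% with a pseudocount of 0.25, 1.03% with edgeR and 1.01% with DESeq2 on recovered reads. Genes lower by 2-fold or more made up 1.32%, and 2.07% with edgeR and 2.07% with DESeq2. The total of 7004 ran from 5519 to 8124 when 1 library was left out, the highest values coming without a veliparib library, and was 5821 with DESeq2 and 6885 with a replicate block (0.54% higher and 1.32% lower by 2-fold or more), which moved 1 list count by over 1.5 times (replication fork genes that rose, from 1 to 2). Olaparib against veliparib gave 6648 to 8206 genes and against UPF1069 5170 to 8048 when 1 library was left out. Of the 7004 calls 77.5% to 100% passed in the same direction under each setting and 0 in the opposite direction. Over pairs of a named gene and a setting, passing or not was as in the main fit in 5937, a call was lost in 42, and none reversed. Some of the kept calls changed in size by over 1.5 times, mostly those of low genes. List counts stayed within 1.5 times in 1196 settings and moved further in 96. Genes near 1 CPM have few reads, and their changes on this scale are understated. With 2 libraries per group, leaving 1 out assumes that the lone library varies like the other groups.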

Other observations

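Changed genes were looked at by their order along the chromosomes, which was taken from RefSeq and is not a coordinate of the deposited build. Of 7717 neighbouring pairs of tested protein-coding genes 11 had both members changed by 2-fold or more with olaparib, 9 of them in the same direction. KLK15, KLK3, KLK2 and KLK4 follow each other and fell by 1.19, 2.99, 4.55 and 1.88 on the log2 scale. MECOM, a zinc finger oncogene, ACTRT3, an actin-related protein gene, and MYNN, a zinc finger gene, follow each other and rose by 1.03, 1.72 and 1.57 (MECOM 1.73 in edgeR). MYNN went from 24.0 and 26.4 CPM in DMSO to 74.8 and 78.6 CPM with olaparib, and ACTRT3 from 4.98 and 4.76 CPM to 18.8 and 17.8 CPM, so that in both the olaparib libraries were clear of the DMSO libraries. Neighbours also moved apart: E2F2 at -1.14 beside ID3 at 1.89, and TNS3, which encodes the adhesion protein tensin 3, at -1.70 (edgeR -3.73) beside IGFBP3 at 2.11.

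TERC, the RNA template of telomerase, lies in the order beside ACTRT3 and stood at 0.899 and 0.824 CPM in DMSO and at 2.81 and 2.86 CPM with olaparib, a log2 change of 1.04 (SE 0.13, limma adjusted p = 4.31e-07, edgeR 1.72). TERT, the reverse transcriptase that uses it, stood at 2.39 and 2.82 CPM in DMSO and at 0.726 and 0.700 CPM with olaparib, a log2 change of -1.07 (SE 0.13, limma adjusted p = 2.38e-07, edgeR -1.87). The template RNA and the enzyme thus moved in opposite directions, both at low levels. These genes, and the pairs above, were chosen after their values were seen, and reads of overlapping genes cannot be told apart.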
